A study of Arabidopsis thaliana with 6 samples.

Results

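Ferritins and vacuolar iron transporters are the proteins with which plant cells put iron out of reach. The 8 genes described here were chosen by their identifiers: the ferritin genes FER1 (AT5G01600), FER2 (AT3G11050), FER3 (AT3G56090) and FER4 (AT2G40300), the vacuolar iron transporter gene VIT1 (AT2G01770), and the vacuolar iron transporter-like genes VTL1 (AT1G21140), VTL2 (AT1G76800) and VTL5 (AT3G25190). The choice was made with earlier results of these data known, so it was not blind to the outcome. All 8 were found among the 36917 genes of the count files. The files hold RNA-seq read counts per gene from plants of Arabidopsis thaliana, ecotype Col-0, aged 3 weeks, and the labels name no organ. Wild type is represented by 3 libraries (replicates 2, 3 and 4) and fbn6-1 by 3 (replicates 1, 2 and 3). The mutant is a single T-DNA insertion line, GK_159E10, in FBN6, which encodes the plastid lipid-associated protein FIBRILLIN6. Both genotypes were kept in a greenhouse on fertilized soil, with 16 h of light and 8 h of dark a day and a fluence near 120 µmol photons m-2 s-1, and the labels name no iron, cadmium or stress treatment. The labels do not say whether a replicate was 1 plant or a pool, and the p-values therefore reflect library-to-library spread that could be technical.

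Ferritin subunits assemble into hollow shells that hold iron in a soluble, unreactive form, in Arabidopsis mainly inside plastids. Ferritin transcripts are known to rise with iron supply and oxidative conditions and to be held low when iron is scarce. VIT1 moves iron and manganese across the tonoplast into the vacuole, and the VTL proteins, relatives of the nodulin-21 family, carry iron into the vacuole when expressed in yeast. Transcripts of VTL1, VTL2 and VTL5 are known to fall in iron-deficient plants.

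Several short sequences near these genes are shown first, because FER1 and the VTL1 and VTL2 pair differ in them. They were read from the TAIR10.1 assembly with the RefSeq annotation, whose gene starts may differ from those behind the deposited counts. In 7 of the genes, FER4 being left out, the 500 bases before the start codon were searched on both strands for 3 motifs: CACGAGG, the opening letters of the iron-dependent regulatory sequence (IDRS) of plant ferritin promoters; GNATATNC, the P1BS element bound by the phosphate-starvation regulator PHR1; and CACGTG, the G-box, a target of basic helix-loop-helix (bHLH) factors. Of 27443 protein-coding genes, 1.65% held the first, 9.19% the second and 9.34% the third in that window. FER1 held 1 match to each, starting 190, 227 and 143 bases before the start codon, and none of them overlapped another. All 3 FER1 matches lie inside the long annotated 5′ end of its transcript, which begins 457 bases before the start codon. The FER1 stretches are printed 5′ to 3′ on the minus strand with the match in capitals, at chr5:229766-229795, chr5:229803-229832 and chr5:229720-229749.
FER1 IDRS: attggatgtagCACGAGGccgccacacgcc
FER1 P1BS: taacgtggatcGAATATCCtcacgttcaca
FER1 G-box: atatccaccctcCACGTGgatctcaatcca

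FER2 and FER3 each held a G-box, starting 143 and 127 bases before the start codon, and neither of the other motifs. VIT1, VTL1, VTL2 and VTL5 held no match to any of the 3. A match is a description of letters and says nothing of whether a factor binds there.

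**Figure D1:**
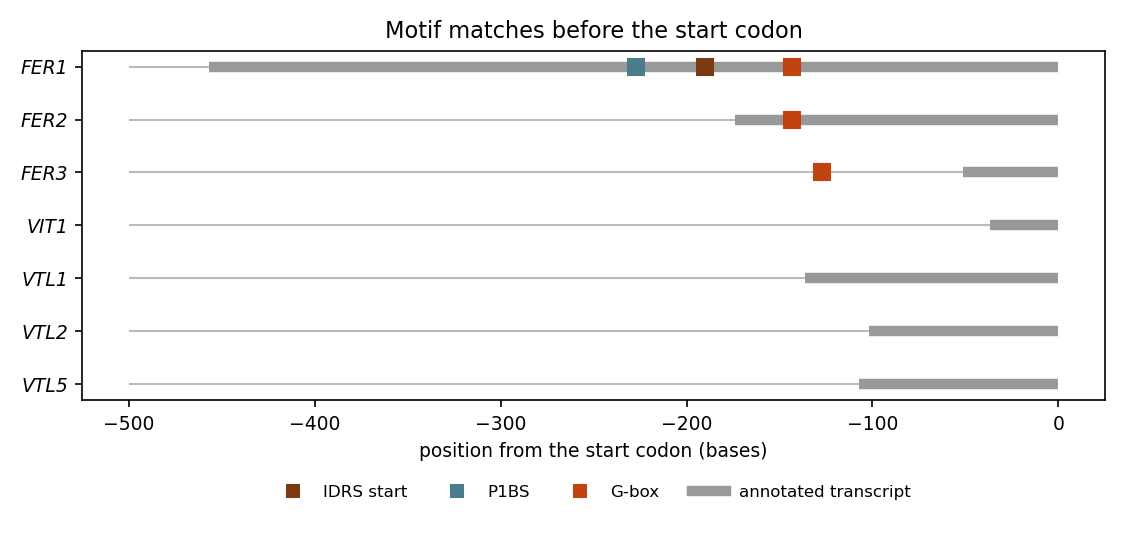
Positions of the 3 motif matches in the 500 bases before the start codon of 7 genes; the x axis is the distance from the start codon in bases and the thick bar is the annotated transcript. The G-box lies 127 to 143 bases before the start codon in FER1, FER2 and FER3, and the IDRS and P1BS matches are in FER1.

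Upstream of the annotated gene starts, VTL1 and VTL2 shared the longest run among the 21 pairs of these 7 genes, compared over the 250 bases before the gene start. Their run of 15 bases occurred in 2 of 27443 such windows. These are the VTL1 and VTL2 windows themselves, from which the run was picked. The other 20 pairs shared at most 11. Both windows are printed 5′ to 3′ from the plus strand, VTL1 at chr1:7404078-7404327 and VTL2 at chr1:28828993-28829242, with the shared run in capitals.
VTL1: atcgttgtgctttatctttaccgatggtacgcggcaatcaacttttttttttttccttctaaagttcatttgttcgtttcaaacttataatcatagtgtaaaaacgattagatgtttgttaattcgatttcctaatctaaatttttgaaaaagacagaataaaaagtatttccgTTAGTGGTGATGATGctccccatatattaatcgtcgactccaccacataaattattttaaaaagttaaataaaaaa
VTL2: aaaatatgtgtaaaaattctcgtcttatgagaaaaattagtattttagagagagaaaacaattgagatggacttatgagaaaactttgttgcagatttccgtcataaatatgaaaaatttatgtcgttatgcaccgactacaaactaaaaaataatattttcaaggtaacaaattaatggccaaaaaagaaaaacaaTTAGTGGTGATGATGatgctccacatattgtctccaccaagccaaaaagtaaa

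The libraries held 8668956 to 12287197 counts, of which 59.7% to 62.5% were plastid or mitochondrial, which left 3257770 to 4955128 counts for nuclear genes. FBN6 had 1557 to 2201 counts in wild type and 3 to 7 in the mutant, which matches the genotype labels. The 5 green leaf markers summed to 20839 to 21290 CPM (counts scaled to a common library size, with TMM factors) in wild type. In the mutant they summed to 17019 to 18493 CPM, and none of them was called. CA1, RBCS1A, RCA and PSBO1 were lower in the mutant without overlap, as were 12.1% of all tested genes. Of 7 root markers 3 were at 0 in all libraries, CASP1, EXPA7 and TIP2;3, and the summed root level was 0.0879 to 0.958 CPM in wild type and 1.35 to 1.59 CPM in the mutant. Most of that sum came from PYK10 (mean 0.109 CPM in wild type, 0.907 in the mutant) and NRT2.1 (0.309 and 0.469). Of 8 seed storage markers 3 were at 0 in all libraries and the sum was at most 0.264 CPM, and the 5 flower markers, of which AP3 was at 0, summed to 0.826 to 1.36 CPM. The part of these marker differences in the results was not tested. Wild-type replicate 3 stood apart from the rest: its counts differed from those of the other wild-type libraries with a chi-square of 13.1 and 13.9 per degree of freedom, against 4.58 to 5.62 in the other pairs of 1 genotype. Values without it are given where they bear on a result.

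Of the 8 genes, FER1, FER4 and VTL2 fell, FER3 and VTL1 were not called, and FER2, VIT1 and VTL5 had too few counts for the test. Genes were called at an adjusted p under 0.05 (edgeR quasi-likelihood test, Benjamini-Hochberg over 16584 tested genes). By this rule 3.82% of all tested genes were called, 2.34% lower and 1.48% higher, and the median log2 fold change of all tested genes was -0.00371. The 5 tested genes are not all 8, and VTL1 reached the minimum count of 10 in wild type only, so the number that fell among those tested carries a choice by level. In bulk samples such as these, fewer cells of a type and less RNA per cell cannot be told apart. No member was called higher by edgeR, DESeq2 or limma-voom, and none lay above 0 with an unadjusted p under 0.05.

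**Figure D2:**
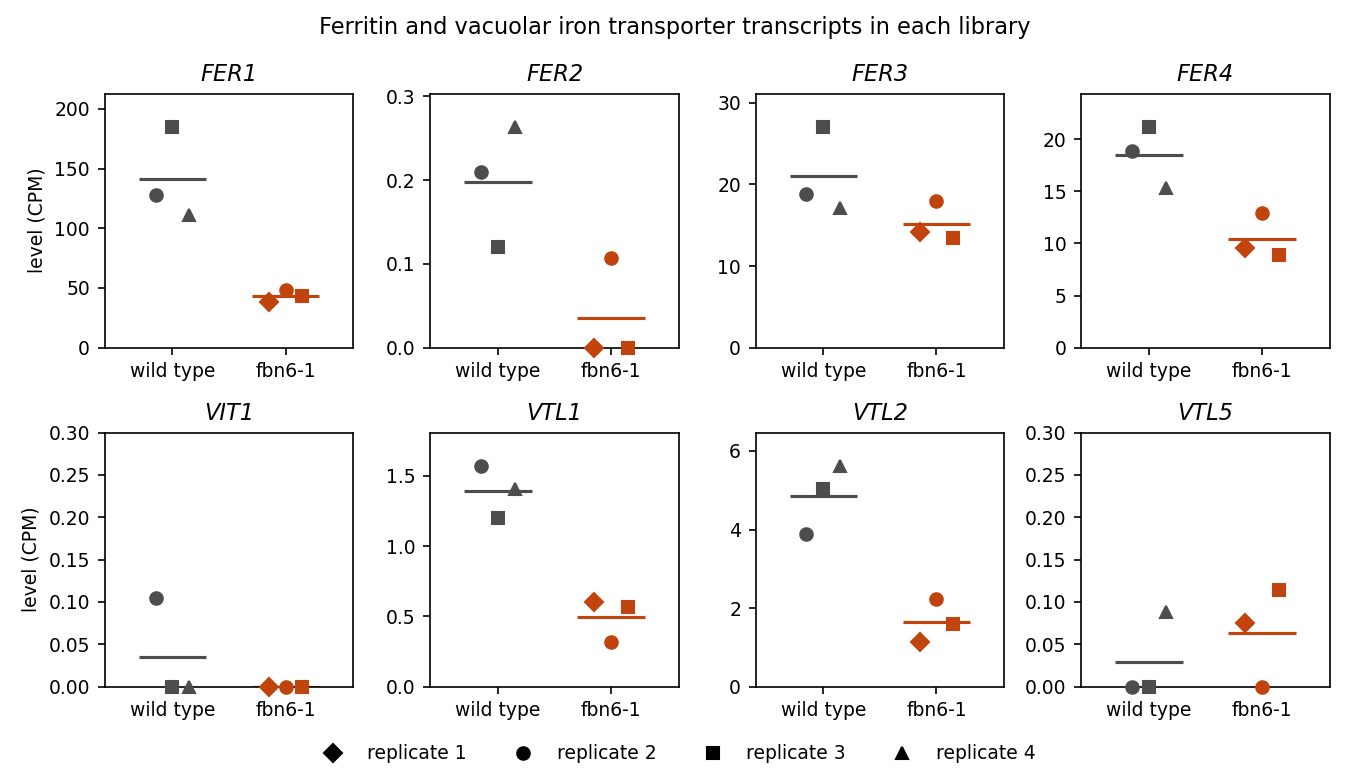
Level of each gene in CPM (y axis, from 0, own scale per gene) in the 3 wild-type and 3 fbn6-1 libraries; symbols give the replicate number and lines the group means. The groups do not overlap for FER1, FER4, VTL1 and VTL2, and do for FER3. Of all tested genes 12.1% were lower in the mutant without overlap. FER2, VIT1 and VTL5 rest on 0 to 3 counts per library.

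FER1 encodes the main plastid ferritin of leaves and lies on chromosome 5, minus strand, at positions 227953 to 230051 of TAIR10.1, with 8 exons. Wild-type replicates 2, 3 and 4 gave 1222, 1545 and 1263 counts, and mutant replicates 1, 2 and 3 gave 511, 451 and 380. As levels these were 128, 185 and 111 CPM in wild type against 38.4, 48.0 and 43.2 CPM in the mutant. Wild-type replicate 3 was the highest library, and the lowest wild-type library was more than double the highest mutant one. FER1 fell 3.28-fold (log2 fold change -1.71, SE 0.16, edgeR adjusted p = 4.16e-05), from 141 ± 38.8 to 43.2 ± 4.82 CPM (SD, n = 3 each). Without wild-type replicate 3 the log2 fold change was -1.47 and the adjusted p 1.07e-07. The lncRNA gene AT5G01595 spans 1334 bases of FER1 on the opposite strand, but its exons share 0 bases with those of FER1. It held 6 to 12 counts per library, too few for the test, against at least 380 for FER1.

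FER4, a ferritin found in plastids and mitochondria, lies on chromosome 2, minus strand, at positions 16831109 to 16833294. Wild-type replicates 2, 3 and 4 stood at 18.9, 21.2 and 15.3 CPM, and mutant replicates 1, 2 and 3 at 9.53, 12.9 and 8.86 CPM. The groups did not overlap, and mutant replicate 2 was the nearest to wild type. FER4 fell 1.77-fold (log2 fold change -0.82, SE 0.17, edgeR adjusted p = 0.0147). The call was lost without wild-type replicate 2 (adjusted p = 0.0564), mutant replicate 1 (0.0836) or mutant replicate 3 (0.0837). FER4 shares 118 exonic bases with its neighbour AT2G40290 on the same strand, so reads there cannot be assigned to either; AT2G40290 stood at 14.8 ± 3.25 CPM in wild type and 18.7 ± 1.69 CPM in the mutant and was not called.

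FER3, a plastid ferritin closest in sequence to FER4, lies on chromosome 3, minus strand, at positions 20813904 to 20816035. It stood at 18.9, 27.1 and 17.1 CPM in wild type against 14.1, 18.0 and 13.4 CPM in the mutant. Mutant replicate 2 lay above wild-type replicate 4, so the groups overlapped. The log2 fold change of -0.46 (SE 0.17) missed the threshold (edgeR adjusted p = 0.173, unadjusted p = 0.0192), which does not show that FER3 is equal in both genotypes. Without wild-type replicate 3, its highest library, the value was -0.25.

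FER2, the ferritin gene known from seeds, was close to undetected, as were the seed storage markers. It lies on chromosome 3, plus strand, at positions 3463477 to 3465506. The wild-type replicates gave 2, 1 and 3 reads and the mutant replicates 0, 1 and 0. Pooled, this is 6 against 1, a ratio of wild type to mutant of 6.46 with an exact 95% interval of 0.784 to 297 that covers counting error only. A difference was not detectable at this depth.

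Per length of exon, FER1 made up most of the ferritin transcripts, and less of them in the mutant. FER1 stood at 99.5 ± 27.3 CPM per kilobase of annotated exon in wild type, against 16.4 ± 4.18 for FER3, 14.7 ± 2.38 for FER4 and 0.172 ± 0.0633 for FER2 (SD, n = 3). In the mutant the same order held at 30.4 ± 3.39, 11.9 ± 1.93, 8.33 ± 1.72 and 0.0309 ± 0.0535. FER3 and FER4 did not differ beyond their spread in wild type, where FER4 was the higher of them in replicate 2. FER1 held 75.0%, 77.3% and 75.2% of the summed ferritin level per kilobase for wild-type replicates 2, 3 and 4, whereas the mutant replicates 1, 2 and 3 gave 59.1%, 58.0% and 63.4%. FER3 went from 12.6% ± 0.28 to 23.4% ± 1.33 and FER4 from 11.4% ± 1.27 to 16.4% ± 1.48. The sum itself was 120, 168 and 104 CPM per kilobase in wild type against 45.7, 58.3 and 48.0 in the mutant, and the group means differed 2.58-fold.

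**Figure D3:**
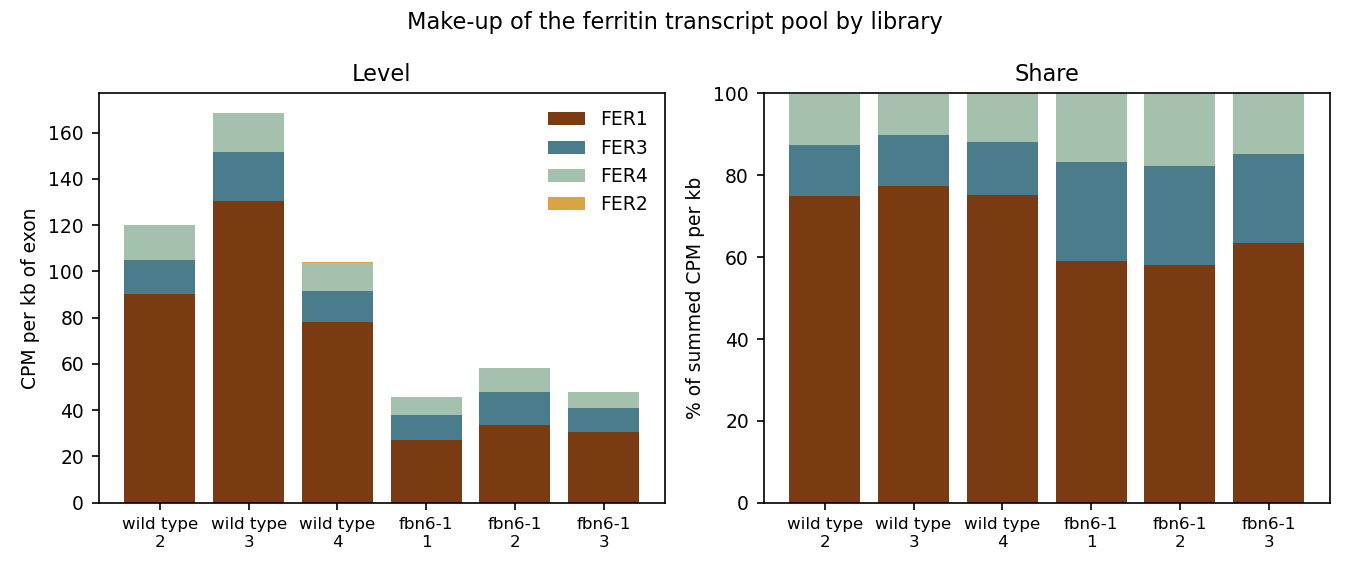
Left, summed level of the ferritin genes in CPM per kilobase of exon (y axis) in each library; right, the share of each gene in that sum (%). FER1 is the largest part in every library and falls from 75.0% to 77.3% in wild type to 58.0% to 63.4% in fbn6-1; FER2 is too small to see.

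The ratio of counts between ferritin genes within a library does not depend on how libraries are scaled. The ratio of FER1 to FER3 was 6.79, 6.84 and 6.51 in wild type against 2.72, 2.67 and 3.22 in the mutant. It was nearly constant within wild type, although wild-type replicate 3 had the highest level of both genes. The ratio of FER1 to FER4 was 6.79, 8.73 and 7.26 in wild type against 4.02, 3.73 and 4.87 in the mutant, and that of FER3 to FER4 was 1.00, 1.28 and 1.11 against 1.48, 1.40 and 1.51. The groups did not overlap in any of the 3 ratios. The ratio of FER3 to FER4 follows from the other ratios, so the 3 are not independent. On the log2 scale the differences were -1.23, -0.85 and 0.38, each with p = 0.1 in a two-sided exact permutation test, which is the smallest p that 3 against 3 libraries allow (0.1 after adjustment over the 3 ratios).

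Identical runs between the ferritin transcripts were at most 32 bases long. FER3 and FER4 had 79.3% identical bases in aligned coding sequence, and the longest identical run of their transcripts was 32 bases. FER1 had 70.5% to 71.5% identity with the other ferritins, with runs of at most 17 bases. The sources used here give neither the read length nor the treatment of reads with several matches. How well reads of these genes could be told apart is therefore not known.

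Among the vacuolar transporters VTL2 was the 1 called lower, while VIT1 and VTL5 were not tested. VTL2, a VIT-like iron transporter, is a single-exon gene on chromosome 1, plus strand, at positions 28829243 to 28830278. Wild-type libraries gave 37, 42 and 64 counts and mutant libraries 15, 21 and 14, or 3.88, 5.03 and 5.63 CPM against 1.13, 2.24 and 1.59 CPM. The groups did not overlap, and the counts are small enough that counting error is a large part of the spread. VTL2 fell 3.01-fold (log2 fold change -1.59, SE 0.29, edgeR adjusted p = 0.00644), and it stayed called with any 1 library left out (adjusted p 0.00365 to 0.0457). With replicate number as a block VTL2 was at -1.20 without a call, though no label says that the numbers mark a shared source.

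VTL1, a tonoplast member of the same family, is a single-exon gene on chromosome 1, plus strand, at positions 7404328 to 7405426. Wild-type libraries gave 15, 10 and 16 counts and mutant libraries 8, 3 and 5. These are 1.57, 1.20 and 1.41 CPM against 0.601, 0.319 and 0.568 CPM, so each wild-type library lay above each mutant library. The log2 fold change of -1.45 (SE 0.42) missed the threshold (edgeR adjusted p = 0.0738, unadjusted p = 0.00395). That miss does not show that VTL1 is equal in both genotypes. VTL1 and VTL2 had 77.1% identical coding bases and an identical run of 24 bases in their transcripts. Their summed level was 6.24 ± 0.792 CPM in wild type and 2.15 ± 0.414 CPM in the mutant (SD, n = 3).

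For the groups that did not overlap, the background was wide: 12.1% of all tested genes were lower in the mutant without overlap, and 23% were apart in either direction. FER1, FER4, VTL1 and VTL2 were among them. Per kilobase of exon, VTL2 stood at 4.68 ± 0.858 CPM in wild type and 1.59 ± 0.538 in the mutant, and VTL1 at 1.27 ± 0.171 and 0.451 ± 0.140, which places both below FER4 and FER3 in either genotype.

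VIT1 and VTL5 were at the limit of detection. VIT1, the tonoplast transporter known from embryos and seeds, lies on chromosome 2, minus strand, at positions 334663 to 336462. It had 1 count in wild-type replicate 2 and 0 in the other libraries. A count of 0 over the mutant libraries allows a level of up to 0.0952 CPM (3 counts, counting error only). VTL5 lies on chromosome 3, plus strand, at positions 9174398 to 9175866. It had 1 count in wild type, in replicate 4, and 2 in the mutant, in replicates 1 and 3. For both genes a difference was not detectable at this depth. VIT1 shares 98 exonic bases with RR14 on the opposite strand, and FER2 shares 8 with ENGase85B on the same strand.

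Other relatives of VIT1 showed no call. Of 5 genes 2 were tested, MEB1 and AT4G27870. The others had too few counts for the test: MEB2 had 2 to 4 per library, VTL3 had 1 in all and VTL4 none. MEB1, a membrane protein of endoplasmic reticulum bodies, stood at 1.29 CPM in wild type and 1.06 CPM in the mutant (log2 fold change -0.38, SE 0.45). AT4G27870 had a log2 fold change of -0.16 (SE 0.17). Both had edgeR adjusted p above 0.7, at 0.732 and 0.701, and neither had an unadjusted p under 0.05 or a call by limma-voom. DESeq2 did not call AT4G27870 and gave MEB1 no adjusted p.

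**Figure D4:**
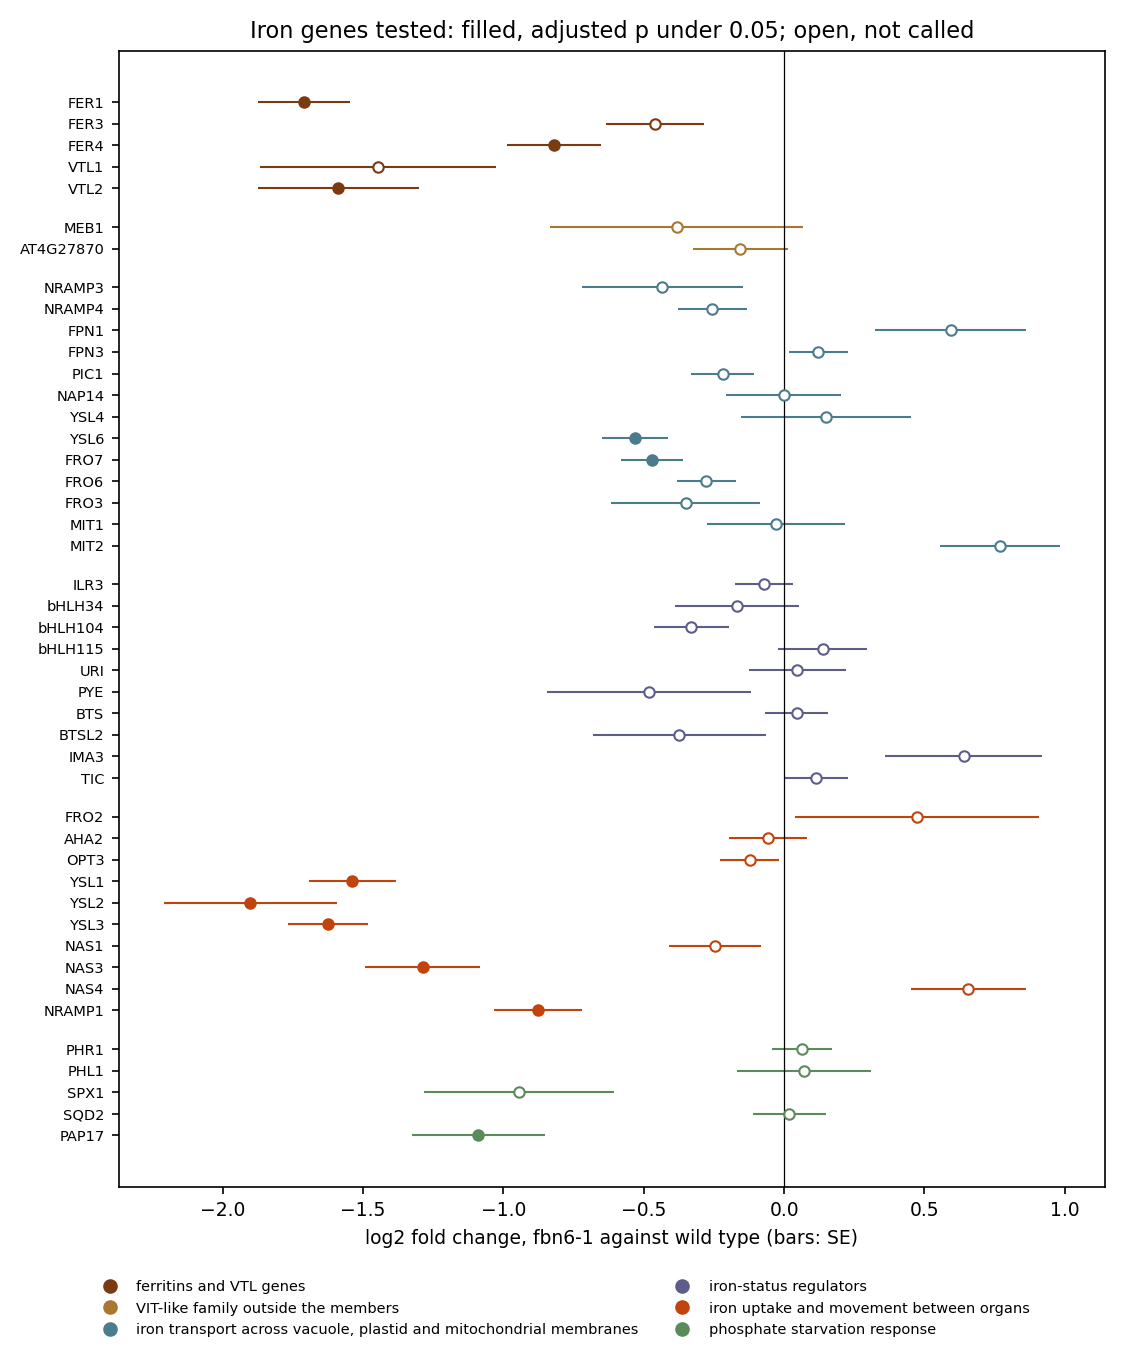
Log2 fold change, fbn6-1 against wild type (x axis; bars are SE), of each tested ferritin and VTL gene and of the tested genes of 5 lists; filled points were called and open points were not. The called genes all lie below 0, with FER1, VTL2, YSL1, YSL2 and YSL3 between -1.54 and -1.90.

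Of 13 genes for iron uptake and movement, 10 were tested, 5 fell and 0 rose, and the median log2 fold change was -0.56. Of all tested genes 2.34% were called lower and 1.48% higher, with a median of -0.00371. This list, like the others here, was chosen with earlier results of these data known. YSL1, YSL2 and YSL3 belong to the yellow stripe-like transporters of metal-nicotianamine complexes. YSL3 was at 27.7, 26.4 and 21.1 CPM in wild type against 7.81, 8.20 and 8.29 CPM in the mutant (log2 fold change -1.63, SE 0.14, edgeR adjusted p = 1.65e-05). YSL1 had a log2 fold change of -1.54 (SE 0.16) and YSL2 of -1.90 (SE 0.31). NAS3, which makes nicotianamine, fell by 1.29 on the log2 scale (SE 0.20), and NRAMP1, a plasma membrane manganese and iron transporter, fell by 0.88 (SE 0.16). These 5 genes stayed called with any 1 library left out. NAS4, a second nicotianamine synthase, stood at 5.41 and 8.52 CPM (0.66, adjusted p = 0.0952). Without wild-type replicate 3 NAS4 was called higher (0.75, edgeR adjusted p = 0.0426). FRO2, the ferric reductase of roots, stood at 0.835 and 1.16 CPM (0.47, adjusted p = 0.638). DESeq2 and limma-voom also called 5 lower and 0 higher, and 1 gene lay above 0 with an unadjusted p under 0.05.

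Of 14 genes listed under iron transport across the membranes of vacuoles, plastids and mitochondria, 13 were tested, 2 fell and 0 rose. The place of each protein was not examined. The median log2 fold change was -0.22, and 2.34% of all tested genes were called lower. YSL6, implicated in the release of iron from chloroplasts, fell from 34.9 ± 2.63 to 24.2 ± 2.66 CPM (-0.53, SE 0.12, edgeR adjusted p = 0.0217). FRO7, the ferric reductase of chloroplasts, fell from 137 ± 16.1 to 98.9 ± 7.80 CPM (-0.47, SE 0.11, adjusted p = 0.0301). Both calls were lost with library-size scaling and with any 1 library left out other than wild-type replicate 3. MIT2, a mitochondrial iron importer, stood at 3.41 and 5.77 CPM (0.77, adjusted p = 0.0629), and FPN1, a ferroportin of the vasculature, at 2.74 and 4.26 CPM (0.59, adjusted p = 0.263). Without wild-type replicate 3 MIT2 was called higher (0.88, edgeR adjusted p = 0.0281). NRAMP3 (-0.43) and NRAMP4 (-0.26), which release iron from the vacuole, were not called. DESeq2 and limma-voom called 2 lower and 0 higher, and 2 genes lay above 0 with an unadjusted p under 0.05.

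Regulators of iron status showed no call. Of 19 genes 10 were tested, and edgeR, DESeq2 and limma-voom called 0 in either direction. At an unadjusted p under 0.05, 1 was lower (bHLH104) and 1 higher (IMA3), and the median was -0.01. bHLH104 was at 14.1 CPM in wild type and 11.2 CPM in the mutant (-0.33, SE 0.13, edgeR adjusted p = 0.209). ILR3, a bHLH factor known to act on ferritin genes, was at 30.2 CPM in wild type and 28.7 CPM in the mutant (-0.07, SE 0.10). PYE, its partner in that role, was at 2.40 and 1.77 CPM (-0.48, SE 0.36), and BTS, a ubiquitin ligase that limits the iron-deficiency response, at 43.6 and 45.0 CPM (0.04, SE 0.11). IMA3, a peptide gene that promotes iron uptake, was at 2.17 and 3.45 CPM (0.64, SE 0.28, adjusted p = 0.248). The 9 untested genes, bHLH38, bHLH39, bHLH100, bHLH101, FIT, bHLH11, BTSL1, IMA1 and IMA2, had at most 7 counts in any library, so a change in them was not detectable.

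Genes of the phosphate starvation response were included because PHR1 is known to act on FER1 through a P1BS element. Whether the match shown above is that element was not tested. Of 10 genes 5 were tested, 1 fell and 0 rose, with a median of 0.02, beside 2.34% called lower among all tested genes. PAP17, an acid phosphatase gene, fell from 5.05 ± 0.560 to 2.36 ± 0.529 CPM (-1.09, SE 0.24, edgeR adjusted p = 0.0198), a call that was lost when wild-type replicate 4, mutant replicate 1 or mutant replicate 3 was left out. SPX1, an inhibitor of PHR1, stood at 3.08 and 1.65 CPM (-0.94, SE 0.34, adjusted p = 0.149). Without wild-type replicate 3 SPX1 was called lower (-1.22, edgeR adjusted p = 0.0158). PHR1 (0.07, SE 0.11) and PHL1 (0.07, SE 0.24) were not called. DESeq2 and limma-voom called 1 lower and 0 higher, and 0 genes lay above 0 with an unadjusted p under 0.05.

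Across the 6 libraries the genes most like FER1, among 9909 others with a mean of at least 5 CPM, were AT2G36895, the nitrate reductase gene NIA2, ACS10, GGP3 and GLP5. Their log2 CPM had Pearson correlations of 0.9903 to 0.9949 with that of FER1. For VTL1 the 5 closest were AT4G37550, AT1G52600, AT1G06045, ABCG32 and AT3G24040, with correlations of 0.99 to 0.9961. None of those 5 genes was called. VTL1 itself had means of 1.39 CPM in wild type and 0.496 CPM in the mutant, below that minimum, so counting error is a large part of its profile. The 6 points share libraries and the genotype difference, so these correlations are descriptions. NIA2 stood at 1301 CPM in wild type and 929 CPM in the mutant.

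**Figure D5:**
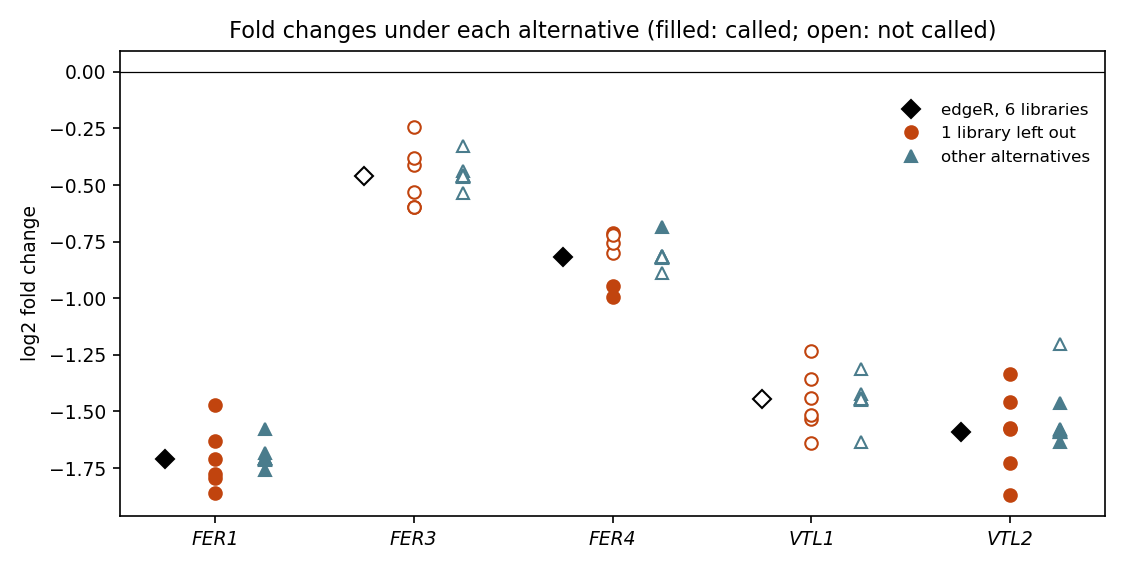
Log2 fold change (y axis) of the 5 tested genes under edgeR with 6 libraries, with 1 library left out, and under the other alternatives; filled symbols were called under that setting and open ones were not. All values lie below 0, FER1 is filled throughout, and FER4 is open in several settings.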

How the data were processed

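Each library came as a deposited table of unnormalized gene counts. The submitters' processing notes name Trimmomatic, FastQC, TopHat2 2.1.1, featureCounts and the TAIR10 build; their settings, annotation release and strand use were not given in the sources used here. RNA was extracted with Trizol for an Illumina Tru-Seq library, per the labels' protocols.

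Differences between genotypes were fitted in edgeR 4.0.16 under R 4.3.3 (quasi-likelihood, two-sided, TMM, filterByExpr with minimum count 10 and total 15, no covariate), which kept 16584 genes. SE were derived from the fold change and its F statistic. Alternatives were DESeq2 1.42.0, limma-voom (limma 3.58.1), other scalings, filters and thresholds, a replicate block and leaving out each library. Exon lengths and sequences came from RefSeq's TAIR10.1; the sequence upstream of FER4 is not reported here. Named genes were the 8 members, FBN6, overlapping genes and the 5 genes most correlated with FER1 and with VTL1. Per list they were the called genes plus the largest 2 not called. NRAMP3, NRAMP4, ILR3, bHLH104, BTS, PHR1, PYK10, NRT2.1, the markers at 0 and genes with few counts were added after their values were seen. Members and lists were chosen with earlier results of these data known.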

Additional observations from a re-analysis of the deposited data

How the results depend on the processing

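FER1 stayed called under all 15 alternatives (log2 fold change -1.86 to -1.47), and all 74 alternative values of the 5 tested members lay below 0. Without the low-count filter FER3 was called (-0.46, edgeR adjusted p = 0.0403); that fit gave no gene a spread of its own beyond the common trend. FER4 was not called at an adjusted p under 0.01 (-0.82), and ranged from -0.99 to -0.71 with 1 library left out. Members called lower numbered 4 without the filter, 2 at 0.01 and 2 to 3 with 1 library left out. VTL1, MEB1, PYE, FRO2 and SPX1 had no DESeq2 adjusted p, so DESeq2 could not call them. Genes called higher and lower numbered 508 and 195 with library-size scaling (which moved the median of all genes to 0.129), 505 and 727 without the filter, 69 and 151 at 0.01, and 84 to 463 and 171 to 775 with 1 library left out, the highest of each without wild-type replicate 3.

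Replicate numbers 2 and 3 occur in both genotypes, but deviations from the group means did not pair them (correlations -0.0345 and 0.0976), and nothing in the labels says they mark a shared source. With replicate number as a block, 73 genes were higher and 118 lower, 1 member was called (FER1), FER4 was at -0.89 and VTL2 at -1.20 without a call, MEB1 turned to 0.38, and the organelle transport and phosphate lists held 0 lower calls each.

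Calls in the lists moved as follows. The organelle transport list held 0 lower and 1 higher with library-size scaling, 1 higher without the filter, 0 lower at 0.01, and 0 to 3 lower (3 without wild-type replicate 3) and 0 to 1 higher with 1 library left out. The uptake list held 1 higher with library-size scaling, 1 without the filter and 0 to 1 with 1 library left out. The phosphate list held 0 lower at 0.01 and 0 to 2 with 1 library left out. MEB1 ranged from -0.62 to 0.0026 and PHL1 from -0.10 to 0.26 with 1 library left out. Ratios between ferritin genes kept their direction in all alternatives. Depth limits FER2, VIT1, VTL1 and VTL5.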
